A study of Mus musculus with 96 samples.

Results

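Transcripts of 10 genes that mark the segments of the kidney tubule were followed across mouse tissues: Slc34a1, Lrp2, Cubn, Kap and Aqp1 of the proximal tubule, Umod and Slc12a1 of the thick ascending limb, Slc12a3 of the distal convoluted tubule, Klk1 of the connecting tubule, and Aqp2 of the collecting duct. They were chosen by name as kidney tubule genes and are 10 of the 41575 genes in the count table. RNA was sequenced from 16 tissues of 3-week-old wild-type mice and of Scx-/- mice, which lack Scleraxis, a basic helix-loop-helix transcription factor of tendon and ligament, in every cell of the body. Each tissue and genotype had 3 libraries, which gives 32 groups and 96 libraries. No label gave the strain, the sex or the litter of a mouse, and nothing says which libraries came from one animal, so a p-value here measures the spread between libraries.

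The nephron filters blood at the glomerulus and then reclaims what the body needs, segment by segment. The proximal tubule takes back phosphate, glucose and filtered protein. The thick ascending limb and the distal convoluted tubule take up sodium chloride through separate cotransporters, and the collecting duct adjusts water under vasopressin. Each task uses its own transporters and receptors, and genes for these serve as segment markers.

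Library totals ran from 11244 to 1658192 counts with a median of 251640, and 8 libraries held fewer than 50000. The kidney libraries held 672218 to 1015500 counts in wild-type and 242429 to 447350 in Scx-/-, ranges that did not overlap. The deleted gene was scarce: in kidney Scx had 7, 3 and 0 counts in the wild-type libraries and 0 in each Scx-/- library. Over all tissues it had 80 counts in 12 of 48 wild-type libraries and 9 counts in 1 of 48 Scx-/- libraries. The source of those 9 counts in a library labelled Scx-/- was not tested. Levels are counts per 1000000 of a library's total (CPM), and SD is over libraries.

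On the build GRCm38 (mm10) the proximal tubule genes lie at chr13:55398187-55415592 (Slc34a1), chr2:69424340-69586065 (Lrp2), chr2:13276338-13491813 (Cubn), chr6:133849851-133853762 (Kap) and chr6:55336432-55348555 (Aqp1). Those of the later segments lie at chr7:119462711-119479282 (Umod), chr2:125152505-125230002 (Slc12a1), chr8:94329201-94366214 (Slc12a3), chr7:44225360-44229618 (Klk1) and chr15:99579055-99584547 (Aqp2).

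In kidney, Slc34a1, the main phosphate transporter of the proximal brush border, was at 4357, 4280 and 4182 CPM in the wild-type libraries and at 3668, 4694 and 4158 CPM in the Scx-/- libraries. Lrp2, which encodes the endocytic receptor megalin, was at 1991, 1812 and 1590 CPM in wild-type and at 1717, 1962 and 1625 CPM in Scx-/-. Cubn, which encodes megalin's partner cubilin, was at 110, 171 and 90.7 CPM in wild-type and at 114, 227 and 202 CPM in Scx-/-. For these 3 genes the genotypes overlapped, and Slc34a1 and Lrp2 varied little from library to library. Aqp1, the constitutive water channel of the proximal tubule and of many endothelia, was at 656, 540 and 735 CPM in wild-type and at 713, 810 and 565 CPM in Scx-/-, again overlapping.

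In the distal nephron, Umod encodes uromodulin, a protein of urine. It was at 2689, 2582 and 2490 CPM in wild-type kidney and at 2957, 2468 and 2355 CPM in Scx-/-. Slc12a3, the thiazide-sensitive sodium chloride cotransporter, was at 242, 351 and 186 CPM in wild-type and at 344, 193 and 408 CPM in Scx-/-. Klk1, which encodes tissue kallikrein, a kinin-releasing protease, was at 2965, 1690 and 3853 CPM in wild-type and at 2758, 2272 and 2343 CPM in Scx-/-. In all 3 the ranges of the genotypes overlapped. Aqp2, the water channel that vasopressin moves to the membrane, also overlapped between the genotypes. It was at 1037, 490 and 689 CPM in wild-type and at 879, 853 and 408 CPM in Scx-/-.

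The 10 genes together took 3.55% ± 0.51 (SD, n = 3) of the counts of wild-type kidney and 2.46% ± 0.13 (SD, n = 3) of those of Scx-/- kidney, with no overlap between the genotypes (exact permutation test, two-sided p = 0.1, the smallest that 3 against 3 libraries allow). Kap, kidney androgen-regulated protein, was the largest of the 10, with 2.08% ± 0.59 for wild-type and 0.936% ± 0.167 for Scx-/- (SD, n = 3 each). Without Kap the other 9 took 1.47% ± 0.16 and 1.52% ± 0.086 (SD, n = 3 each), which overlapped and were not lower in Scx-/-. Set per kilobase of merged exons, the level in wild-type kidney was 29367 CPM per kb for Kap, 2633 for Klk1, 936 for Umod, 914 for Slc34a1, 520 for Aqp2, 256 for Slc12a1, 245 for Aqp1, 108 for Lrp2, 23.4 for Slc12a3 and 8.29 for Cubn. The reads were enriched for the 3' ends of transcripts, so counts need not grow with length, and the order of genes on this scale is a description only. By it Kap stood far above the others, and cubilin, a very large receptor, was lowest.

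**Figure D1:**
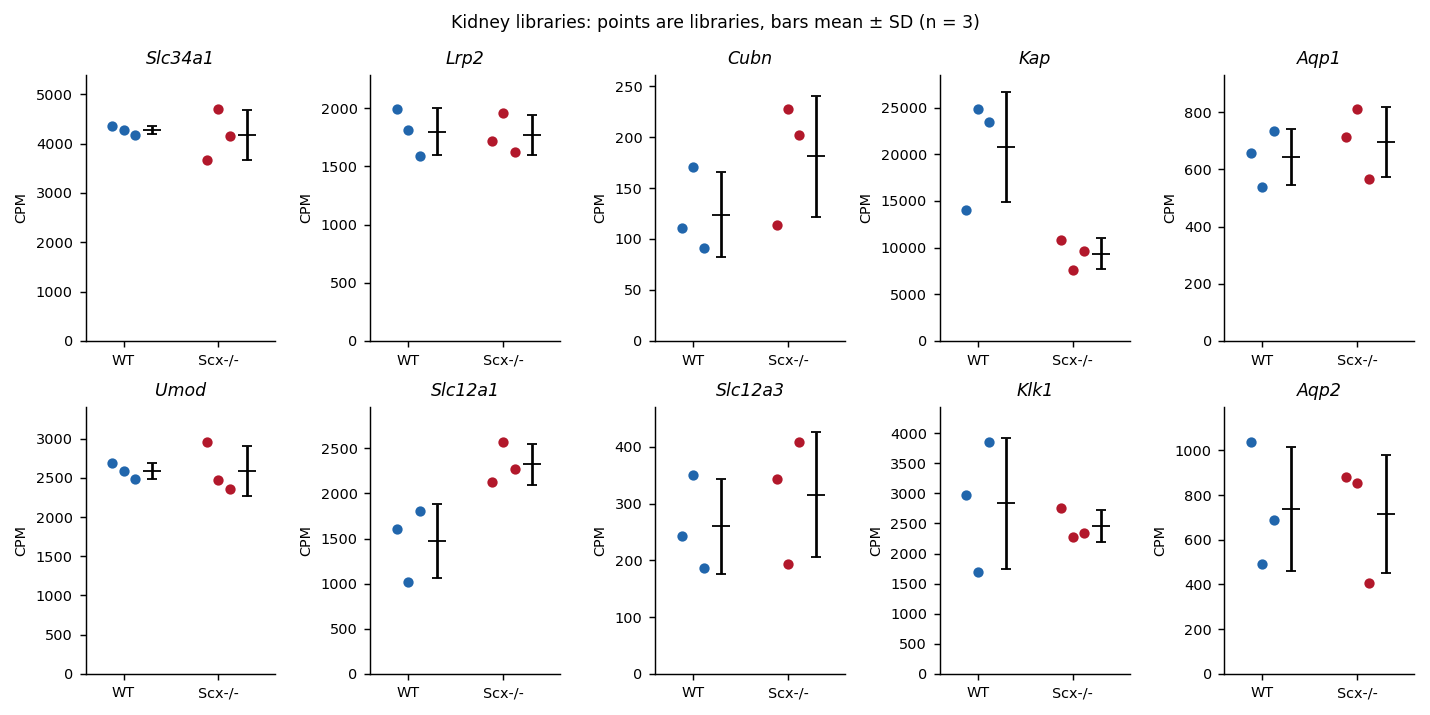
CPM of the 10 genes in the 6 kidney libraries, each panel from 0, with wild-type (WT) in blue and Scx-/- in red; points are libraries and bars the mean ± SD of 3. The 3 Kap values of Scx-/- (7561 to 10846) lie under the 3 of WT (14022 to 24811), the 3 Slc12a1 values of Scx-/- (2121 to 2569) lie above those of WT (1016 to 1802), and the other 8 genes overlap.

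The genotypes were then compared in kidney, the organ in which these genes work. One of the 10 genes was called: Kap was lower in Scx-/- kidney. Kap stood at 14022, 24811 and 23455 CPM in the wild-type libraries and at 10846, 7561 and 9685 CPM in the Scx-/- libraries. Every wild-type library was above every Scx-/- library, and the wild-type mean was 2.22-fold the Scx-/- mean. In edgeR's quasi-likelihood test over 15377 genes, Kap had a log2 fold change (Scx-/- over wild-type) of -1.25 (SE 0.12, Benjamini-Hochberg adjusted p = 5.79e-16). The SE was taken from the test statistic, and the fit shares its estimate of spread across genes. Neither the SE nor the p therefore rests on the spread of the Kap values alone. In the same test 0.195% of all genes were called, and 0.117% were called as lower in Scx-/-. The median log2 fold change of all genes was itself -0.28, and relative to that median Kap was at -0.97. With library totals in place of the TMM scaling, the median was -0.17 and Kap again -0.97 from it. The median depended on the fit. Over the 7724 genes passing edgeR's filterByExpr it was -0.05, with Kap at -1.14 from it. With the replicate number as a block it was -0.46, with Kap at -0.77 from it. When only genes passing edgeR's filterByExpr were kept, Kap had a log2 fold change of -1.18 with an adjusted p of 0.114. Its unadjusted edgeR p was 1.18e-04 there, against 3.77e-20 over the 15377 genes. No gene of kidney was called with filterByExpr, against 390 at an unadjusted p under 0.05. DESeq2 gave Kap an adjusted p of 3.81e-05.

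Kap is known to respond to androgens, and the mice's sex was not in the labels. The kidney libraries had 677, 0 and 501 counts of Xist, the transcript of the inactive X chromosome, in wild-type, and 245, 0 and 0 in Scx-/-; counts of 4 Y-linked genes (Ddx3y, Eif2s3y, Kdm5d and Uty) were 2, 125 and 2 in wild-type and 0, 101 and 91 in Scx-/-. Among the 3 libraries rich in Xist, Kap was at 14022 and 23455 CPM in wild-type and at 10846 CPM in Scx-/-. Among the other 3, Kap was at 24811 CPM in wild-type and at 7561 and 9685 CPM in Scx-/-. Each set has 1 library of one genotype, so neither gives a test on its own. With Xist status as a covariate over all 6 libraries, a fit added after the data were seen, Kap had a log2 fold change of -1.26 (edgeR adjusted p = 8.2e-12), while Klk1 went from -0.30 to -0.03 and Cubn from 0.42 to 0.15, neither called in either fit. The kidney depth also differed by genotype, and with all 6 libraries thinned to 242429 counts Kap had a log2 fold change of -1.18 (edgeR, adjusted p = 1.79e-17).

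Slc12a1, the loop-diuretic-sensitive sodium, potassium and chloride cotransporter of the thick ascending limb, was the only other gene of the 10 whose genotypes did not overlap in kidney. It was at 1605, 1016 and 1802 CPM in wild-type and at 2121, 2569 and 2273 CPM in Scx-/-, so that all 3 Scx-/- libraries were above all 3 wild-type libraries. The Scx-/- mean was 1.57-fold the wild-type mean, with a log2 fold change of 0.56 (edgeR, SE 0.18, adjusted p = 0.432), which missed the threshold, and the adjusted p ran from 0.0981 with RLE scaling to 0.958 without wild-type replicate 2. Of all genes tested in kidney, 10.7% had no overlap between the genotypes in CPM, against 2 of these 10. The other 8 had log2 fold changes from -0.30 (Klk1) to 0.42 (Cubn), with adjusted p of 0.791 to 0.992 in edgeR. Relative to the median of all genes the 8 ran from -0.02 (Klk1) to 0.70 (Cubn). With filterByExpr they ran from -0.19 (Klk1) to 0.54 (Cubn).

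Because Scleraxis belongs to a family that binds E-boxes (CANNTG, the same on both strands), the promoters of the 2 genes whose kidney values separated by genotype are shown, from RefSeq on GRCm38.p6, the patch series of the build mm10 to which the reads were mapped. All 10 genes matched an entry there. The stretches are 155 bases ending just before the most upstream annotated start, written in the direction of the gene with E-boxes in capitals; Kap lies on the minus strand and Slc12a1 on the plus strand.
Kap, chr6:133853763-133853917: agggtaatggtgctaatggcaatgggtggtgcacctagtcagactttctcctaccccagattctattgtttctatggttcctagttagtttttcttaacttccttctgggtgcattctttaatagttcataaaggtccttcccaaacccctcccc
Slc12a1, chr2:125152350-125152504: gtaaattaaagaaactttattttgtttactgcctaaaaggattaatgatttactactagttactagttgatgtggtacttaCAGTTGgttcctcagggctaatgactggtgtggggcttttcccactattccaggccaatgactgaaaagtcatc
The Kap stretch holds no E-box; the one E-box in the 250 bases before the RefSeq start of Kap begins 71 bases before that start, shown here within 30 bases.
Kap, chr6:133853721-133853750: ttcctctccagcCAACTGtggaaaaccacc
In windows of 250 bases before the start, 9 of the 10 genes held at least 1 E-box, as did 66.2% of all 32851 promoters, and Slc34a1 held none. A short site of the kidney and liver factor HNF1 (GTTAAT, or ATTAAC on the other strand) was found in Slc34a1, with 2 matches, and in Umod, with 1, and in 6.43% of all promoters. These matches are letters in a window and were not tested for binding.

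The other genes of the same segments gave a background for the 10. Lists of 78 nephron genes, of which 76 were tested in kidney, held 3 called genes. All 3 were lower in Scx-/-, where 0.117% of all genes were called lower. The median log2 fold change of the 76 was 0.01 against -0.28 for all genes. The median of all genes was -0.05 over the 7724 passing filterByExpr and -0.08 with DESeq2, so this gap depends on the fit. Of 27 tested proximal tubule genes (median log2 fold change -0.22), Slc22a6, the organic anion transporter OAT1, and Acsm2, a medium-chain acyl-CoA synthetase, fell. Slc22a6 was at 298, 783 and 356 CPM in wild-type and at 199, 187 and 206 CPM in Scx-/- (log2 fold change -1.39, SE 0.31, edgeR adjusted p = 0.00687). Acsm2 was at 991, 2442 and 844 CPM in wild-type and at 496, 771 and 623 CPM in Scx-/- (log2 fold change -1.30, SE 0.22, edgeR adjusted p = 1.98e-05). For both genes the highest value was wild-type replicate 2, and without it the adjusted p was 0.958 for each, with a log2 fold change of -0.80 for Slc22a6 and -0.63 for Acsm2. Slc22a6 also lost its call with the libraries thinned to equal depth (edgeR adjusted p = 0.0532) and with the replicate number as a block (0.0812). It lost it with DESeq2 (0.172) and filterByExpr (0.393) too, as did Acsm2 (0.12 and 0.68). In these fits the log2 fold change of Slc22a6 was -1.24 to -1.32. That of Acsm2 was -1.177 with DESeq2 and -1.225 with filterByExpr.

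The most abundant proximal genes of the list, Napsa (a protease), Miox (which oxidises myo-inositol) and Pck1 (a gluconeogenic enzyme), were not called. Pck1 averaged 1829 ± 583 CPM in wild-type and 4294 ± 2164 CPM in Scx-/- (SD, n = 3 each; edgeR adjusted p = 0.791). None of 11 thick ascending limb genes was called, and 2 had an unadjusted p under 0.05, as had 5.26% of all genes tested in kidney. That list had a median log2 fold change of 0.42, and its most abundant gene, Egf, was at 952 ± 291 CPM in wild-type and 872 ± 149 CPM in Scx-/- (SD, n = 3 each). Of 10 genes of the distal convoluted and connecting tubule (median log2 fold change -0.64), Calb1, the calcium-binding protein calbindin, fell: 574, 813 and 595 CPM in wild-type against 469, 221 and 330 CPM in Scx-/- (log2 fold change -1.06, SE 0.27, edgeR adjusted p = 0.0484). The call was lost in 11 of 13 alternatives, among them RLE scaling (adjusted p = 0.157), library totals (0.143) and DESeq2 (0.285). It was also lost in 5 of the 6 fits that left out 1 library. Over all 13 the adjusted p ran from 0.00677 to 0.958, and the log2 fold change from -0.80 to -1.39. Fxyd2, a subunit of the sodium pump and the most abundant gene of that list, was at 6392 ± 320 CPM in wild-type and 6240 ± 304 CPM in Scx-/- (SD, n = 3 each).

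Cldn10, a claudin of the thick ascending limb, averaged 423 CPM in wild-type and 446 CPM in Scx-/-, and Ppp1r1a, a phosphatase inhibitor, 250 and 444 CPM (edgeR adjusted p = 0.791). S100g, calbindin-D9k, averaged 2281 and 2497 CPM.

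No gene passed edgeR's test among 10 collecting duct principal cell genes (median log2 fold change 0.39), 8 intercalated cell genes (0.07) or 10 podocyte genes (0.43), and 1, 0 and 1 of them had an unadjusted p under 0.05. Npnt, an adhesion protein, averaged 857 CPM in wild-type and 648 in Scx-/-, and Hsd11b2, which inactivates glucocorticoids in principal cells, 343 and 467 CPM. The proton pump subunits Atp6v1g3 (130 and 168 CPM) and Atp6v1b1 (88.1 and 70.8) and the anion exchanger Slc26a4 (71.6 and 75 CPM) led the intercalated list, and Cdkn1c (135 and 174 CPM) and Podxl (123 and 123 CPM) were among the podocyte genes. The epithelial sodium channel subunit Scnn1a, which shares the principal cell with Aqp2, was at 137 ± 69 CPM in wild-type and 144 ± 80 CPM in Scx-/- (SD, n = 3 each). One gene outside these lists is named after its values were seen, because it encodes the chaperone of megalin: Lrpap1 was at 523, 497 and 507 CPM in wild-type and at 244, 193 and 169 CPM in Scx-/- (log2 fold change -1.43, SE 0.30, edgeR adjusted p = 0.0028), while Lrp2 itself overlapped between the genotypes. The Lrpap1 call was lost without wild-type replicate 1 (log2 fold change -1.39, edgeR adjusted p = 0.0695) and with filterByExpr (-1.36, adjusted p = 0.114).

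**Figure D2:**
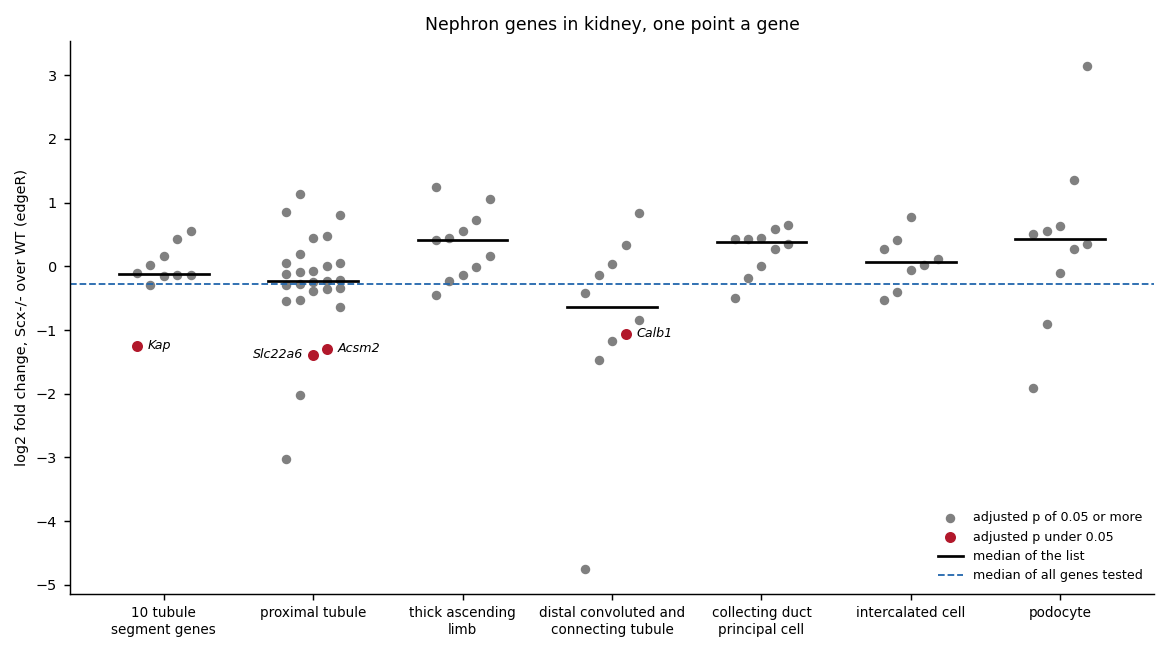
log2 fold change (Scx-/- over WT, edgeR) of the 10 tubule segment genes and of 6 nephron lists in kidney; each point is a gene, red points have an adjusted p under 0.05, black lines are list medians and the dashed line is the median of all genes (-0.28). Kap, Slc22a6, Acsm2 and Calb1 are the called genes, all below -1.

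Markers of other cells a kidney sample could hold were read beside these values, as the summed CPM of each list. Endothelial genes stood at 780 to 886 CPM in wild-type kidney and at 814 to 866 in Scx-/-, erythroid genes at 353 to 947 and 144 to 595, pancreatic acinar genes at 333 to 494 and 210 to 355, and genes shared with choroid plexus at 1852 to 2054 and 1506 to 1927. Adrenal cortex genes stood at 5.91 to 10.2 CPM in wild-type and 0 to 44.7 in Scx-/-, with 7 of the 9 at 0 in all kidney libraries, Cyp11a1, Cyp11b1 and Cyp21a1 among them. Adipocyte genes stood at 283 to 754 CPM in wild-type and at 123 to 311 in Scx-/-, with 8 of 8 detected in wild-type and 7 of 8 in Scx-/-. No gene of these 6 lists was called in kidney by edgeR, and their part in the Kap result was not tested. An unadjusted p under 0.05 was found for 2 of 7 erythroid, 2 of 10 acinar and 4 of 8 adipocyte genes tested, against 5.26% of all genes. All of these were lower in Scx-/-. The median log2 fold change was -0.705 for the erythroid list and -1.56 for both the acinar and the adipocyte list. It was -0.129 for endothelial, -0.494 for choroid plexus and -1.16 for adrenal cortex genes, against -0.275 for all genes. In bulk tissue, fewer cells of a segment and less RNA per cell cannot be told apart.

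Across tissues, 9 of the 10 genes had their highest mean in kidney, and 8 of them, all but Aqp1 and Klk1, had nearly all their counts there. Kidney held 99.2% of the Slc12a1 counts, 99.0% of those of Kap, 98.9% of Aqp2, 98.8% of both Slc34a1 and Umod, 98.5% of Lrp2, 97.8% of Slc12a3 and 91.7% of Cubn. For these 8 genes every wild-type kidney library was above every wild-type library of another tissue (area under the ROC curve, AUROC, of 1); in Scx-/- the AUROC was also 1 except for Cubn (0.993). For Aqp1 it was 0.867 in wild-type and 0.933 in Scx-/-, and for Klk1 0.933 in both. These shares describe genes picked as kidney genes and carry no test.

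**Figure D3:**
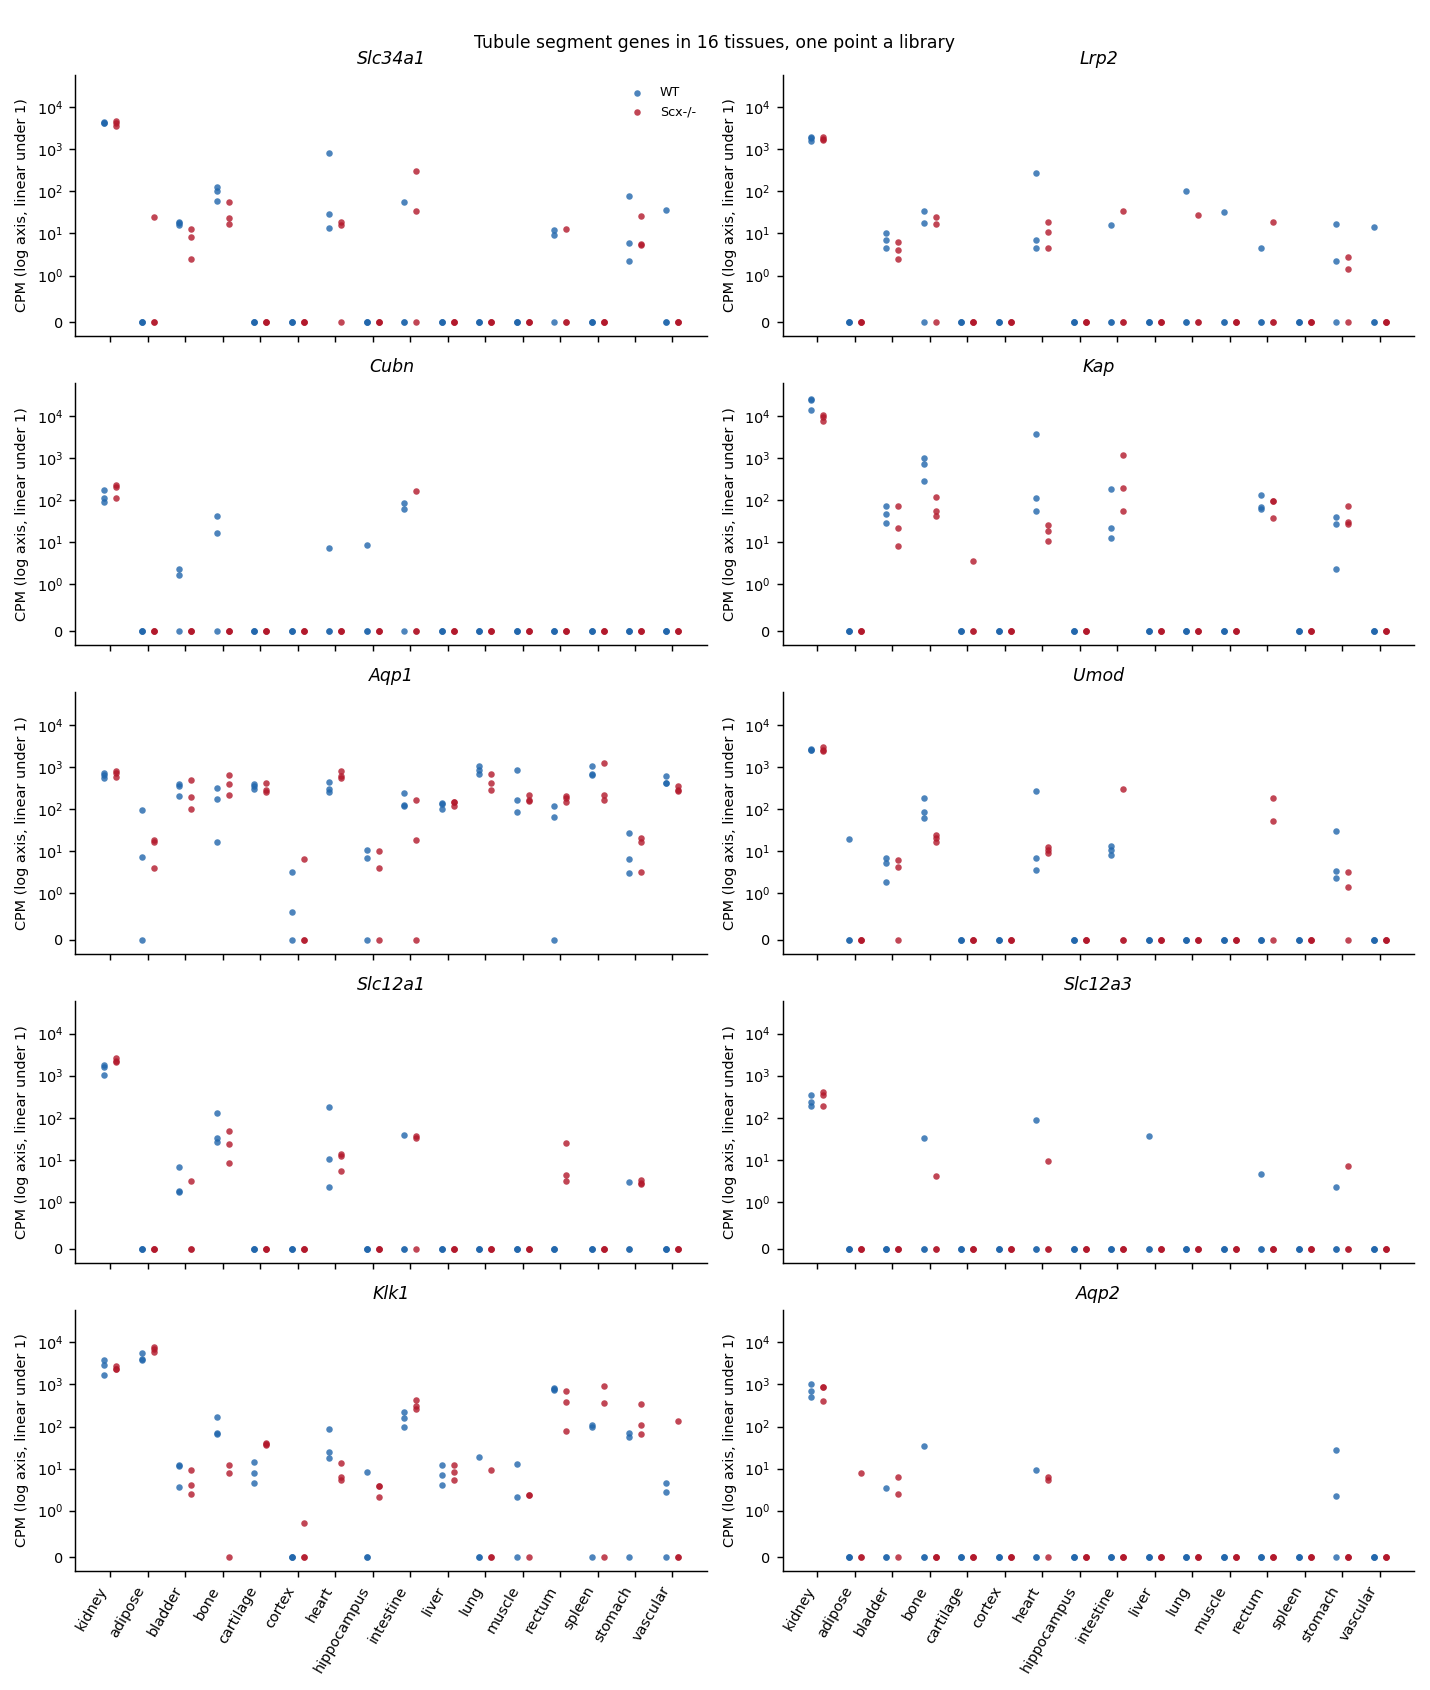
CPM of each of the 10 genes in 96 libraries on a log axis that is linear under 1, with kidney first and WT in blue and Scx-/- in red. The panels other than Aqp1, Cubn and Klk1 show kidney above every other tissue in each genotype, with scattered low values in bladder, bone, heart, intestine, rectum and stomach; Cubn in intestine reaches its kidney range, Aqp1 runs level across many tissues, and Klk1 is highest in adipose.

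Outside kidney the 8 genes were near 0 in some tissues and detected at low counts in others. In cortex and spleen all 8 were at 0 counts in 6 of 6 libraries, which allows up to 0.474 CPM for a gene in cortex and 1.94 CPM in spleen (3 counts over the 6 libraries, for counting error only). Cartilage, hippocampus and muscle held 1 count each over the 8 genes, liver 9 (all of Slc12a3, in wild-type replicate 2), vascular 13, adipose 18, and lung 37 (all of Lrp2, of which 34 were in wild-type replicate 1). In heart, bone, bladder, rectum, stomach and intestine, by contrast, counts of the 8 genes were found in 6 of 6 libraries, with 249 in bone, 185 in heart, 183 in bladder, 160 in stomach, 150 in intestine and 128 in rectum.

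In heart, bone and bladder the low counts of these genes stood at like shares of their kidney counts. Set over the kidney counts of the same gene, the heart counts were 0.174% for Kap (95% exact interval 0.143 to 0.21), 0.191% for Slc34a1 (0.128 to 0.275), 0.2% for Lrp2 (0.107 to 0.343), 0.198% for Slc12a1 (0.102 to 0.346), 0.139% for Umod (0.0738 to 0.237) and 0.221% for Aqp2 (0.081 to 0.481). In bone they were 0.242% for Kap (0.205 to 0.285), 0.204% for Slc34a1 (0.139 to 0.29), 0.32% for Umod (0.216 to 0.457) and 0.296% for Slc12a1 (0.176 to 0.469). In bladder they ran from 0.0988% for Slc12a1 (0.0362 to 0.215) to 0.247% for Lrp2 (0.141 to 0.401) and 0.402% for Cubn, with Kap at 0.177% (0.146 to 0.214) and Slc12a3 at 0. Within each of these tissues the counting intervals overlapped, for genes of the proximal tubule, the thick ascending limb and the collecting duct. In rectum, where Cubn and Aqp2 were at 0, Slc34a1 was at 0.0395% and Umod at 0.277%, but the Umod counts were 14 and 12 in 2 Scx-/- libraries and 0 in the other 4.

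Kap counts in heart and bone were then set over those of the kidney library with the same genotype and replicate number, although the labels do not say that a number marks one animal. In wild-type heart 24, 41 and 32 counts stood against 14239, 21832 and 15767 in kidney, or 0.169%, 0.188% and 0.203%. In Scx-/- heart 4, 4 and 2 counts stood against 4852, 2463 and 2348, or 0.0824%, 0.162% and 0.0852%. Bone had 33, 60 and 34 counts in wild-type (0.232%, 0.275% and 0.216%) and 10, 7 and 5 in Scx-/- (0.206%, 0.284% and 0.213%). In bone the genotypes overlapped in this share, and in heart the Scx-/- shares, which rest on 2 to 4 counts, were the lower ones. Over all 8 genes the heart share was 0.151%, 0.189% and 0.207% in wild-type and 0.118%, 0.224% and 0.215% in Scx-/-, which overlapped. Heart wild-type replicate 2 held only 11244 counts in all, so that Kap was there at 3646 CPM, against 54.6 and 114 CPM in the other two wild-type heart libraries. In bladder, rectum, stomach and intestine the share in a library was less even, from 0.00702% to 1.36%. The source of these counts was not tested: kidney RNA carried over in dissection, kidney reads assigned to other samples of the barcoded pool and expression in the tissue itself cannot be told apart here.

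**Figure D4:**
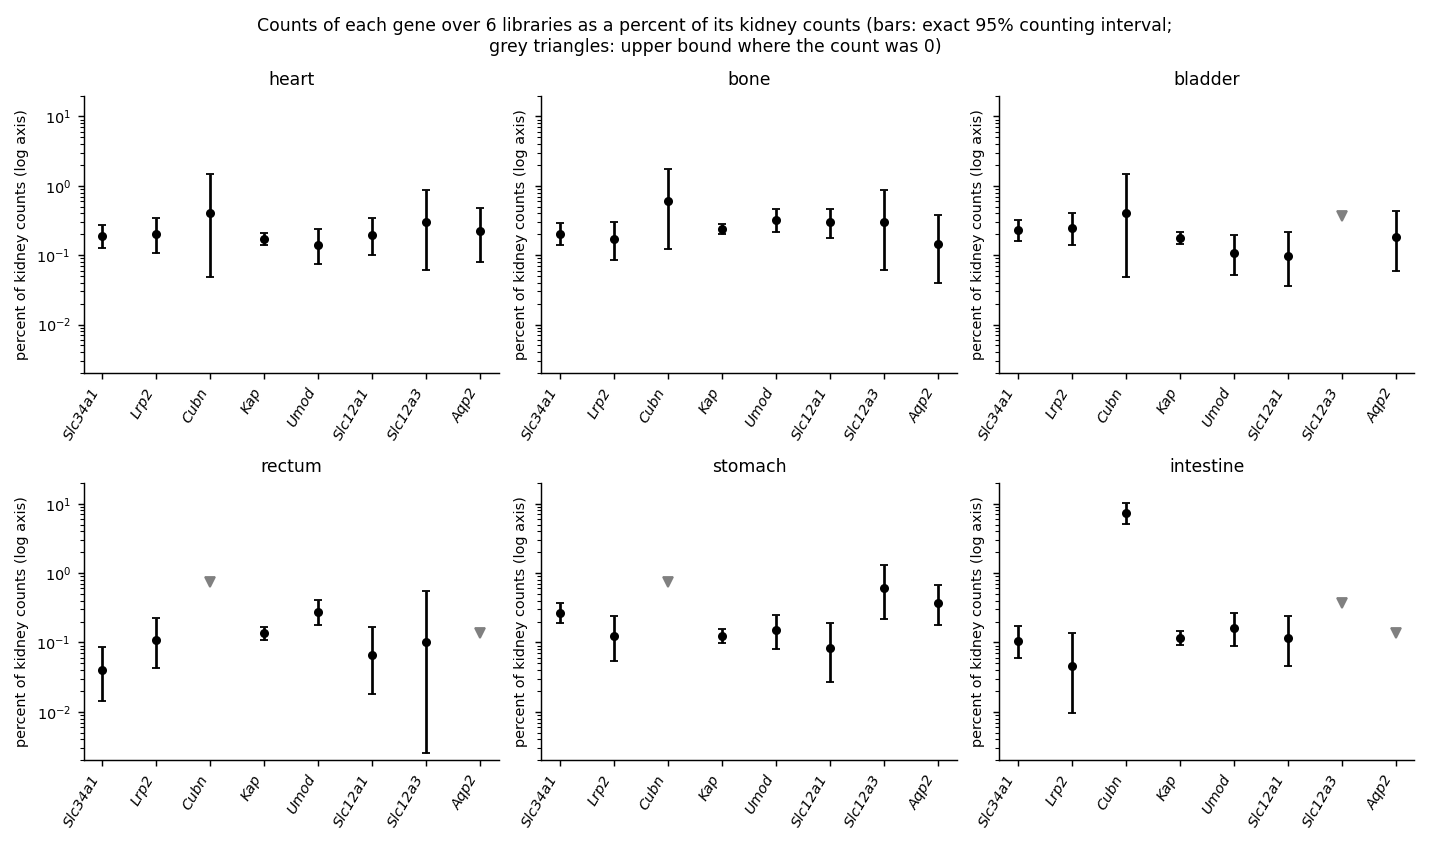
Counts of 8 tubule segment genes in 6 tissues as a percent of the same gene's kidney counts (log axis); points sum 6 libraries, bars are exact 95% counting intervals, and grey triangles are upper bounds where the count was 0. Heart and bone points lie between 0.139% and 0.604%, with overlapping bars, and Cubn in intestine stands apart at 7.45%.

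Outside kidney, 82 tests of these genes were possible in 15 tissues, and 1 was called by edgeR, against 0.0836% of all gene by tissue tests there; 7 of the 82 had an unadjusted p under 0.05, against 3.91% of all such tests. The call was Kap in heart, at 54.6, 3646 and 114 CPM in wild-type and 18.3, 25 and 10.8 CPM in Scx-/- (log2 fold change -4.83, SE 1.01, adjusted p = 0.00551), in a tissue where 0.0391% of genes were called. Without the smallest library, wild-type replicate 2, the log2 fold change was -2.40 and the adjusted p 0.873. The call was also lost, at log2 fold changes of -4.88, -5.10 and -4.60, without Scx-/- replicates 1, 2 and 3 (adjusted p = 0.698, 0.327 and 0.792), with library totals (-5.93, adjusted p = 0.647), with filterByExpr (-5.19, adjusted p = 1) and with the replicate block (-3.78, adjusted p = 1). In bone Kap was at 286, 1004 and 721 CPM in wild-type and 41.6, 56.3 and 118 CPM in Scx-/-, which did not overlap (log2 fold change -3.20, SE 0.93, edgeR adjusted p = 0.636). Kap was also lower in Scx-/- kidney, and the relation of these differences to that one was not tested, so neither can be read as a difference in expression by heart or bone.

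Cubn in the intestine did not follow the other 7 genes. Cubilin is also the receptor for intrinsic factor and vitamin B12 in the ileum. Its intestinal counts were 24, 0 and 8 in wild-type and 0, 5 and 0 in Scx-/-, which is 7.45% of its kidney counts (95% exact interval 5.18 to 10.4), while the other 7 genes reached at most 0.16% there. In CPM, Cubn averaged 52.3 ± 67 (SD, n = 6) in intestine and 153 ± 55.6 (SD, n = 6) in kidney, the closest approach of any tissue to kidney among the 8 genes. The genotype difference missed the threshold, with a wide error (log2 fold change -0.39, SE 2.08, edgeR adjusted p = 0.936).

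Aqp1 was not particular to kidney by level. Its mean over 6 libraries was 670 ± 104 CPM in kidney, 669 ± 440 in spleen, 658 ± 280 in lung, 495 ± 209 in heart, 387 ± 125 in vascular and 329 ± 64.7 in cartilage. Bone (289), bladder (284) and muscle (274) came next, then liver at 129, rectum at 119, intestine at 112, adipose at 23.4, stomach at 12.7, hippocampus at 5.25 and cortex at 1.68 CPM. Every neighbour in that order overlapped the next, and the ranges of kidney (540 to 810), spleen (161 to 1265) and lung (280 to 1049) lay over each other. Aqp1 is made by the endothelium of many organs and by red cells. Over the 16 tissue means its log2(CPM + 1) had a Pearson r of 0.661 with the summed endothelial list. With the summed erythroid list r was 0.601. Without kidney r was 0.64 with the endothelial and 0.7 with the erythroid list, all given as a description. No genotype difference in Aqp1 was called in any tissue. In heart it was at 252, 445 and 298 CPM in wild-type and at 553, 814 and 609 CPM in Scx-/- (edgeR adjusted p = 0.738). In vascular it was at 403, 608 and 417 against 275, 350 and 268 CPM (edgeR adjusted p = 0.672). The study took its vascular samples to be contaminated, from their brown fat genes, and left that tissue out of later steps.

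Klk1 was highest in the libraries labelled adipose, at 5459, 3892 and 4085 CPM in wild-type and 5794, 7804 and 6998 CPM in Scx-/-. Kidney followed with 2647 ± 737 CPM (SD, n = 6), then rectum with 579 ± 294, spleen with 250 ± 358, intestine with 246 ± 119 and stomach with 108 ± 120. The adipose range (3892 to 7804) lay above the kidney range (1690 to 3853), which lay above that of rectum (76.2 to 841). The markers of the adipose libraries went against their label: 17 pancreatic acinar genes took 55.2% to 66.6% of their counts, whereas 8 adipocyte genes summed to 5.99 to 179 CPM, with Lep and Retn at 0. Glandular kallikrein is made in pancreas and salivary gland as well as kidney.

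**Figure D5:**
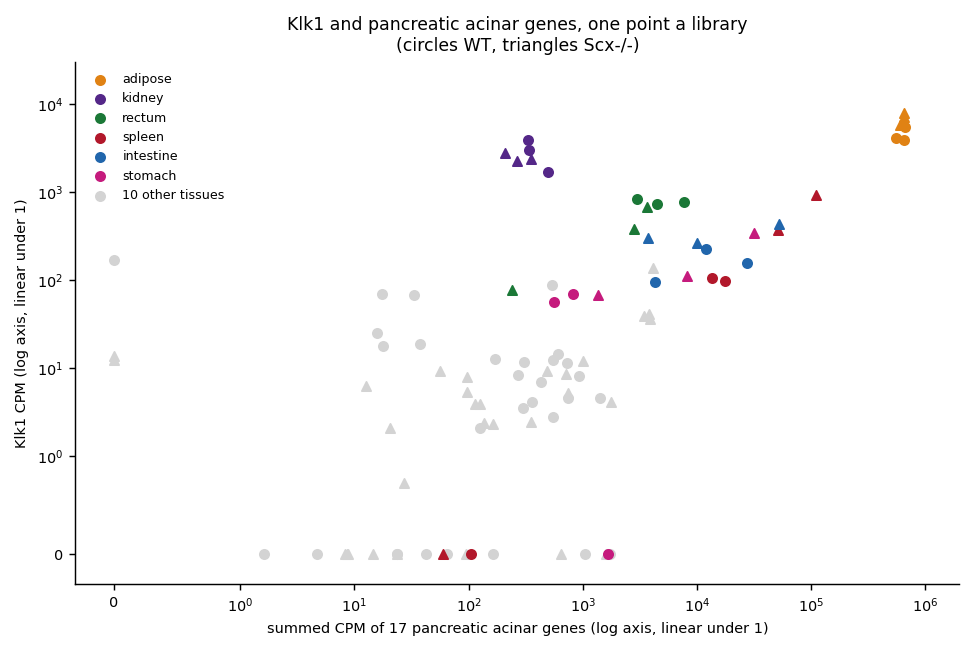
Klk1 CPM against the summed CPM of 17 pancreatic acinar genes in each of 96 libraries, both on log axes that are linear under 1; circles are WT and triangles Scx-/-. Adipose libraries lie at the top right, 20 libraries of 8 tissues are at 0 CPM of Klk1, and the 6 kidney libraries stand apart with Klk1 of 1690 to 3853 CPM at acinar sums of 210 to 494 CPM.

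Klk1 was then set beside the acinar genes in other tissues. In spleen, Klk1 was at 98.5, 107 and 0 CPM in wild-type and at 0, 927 and 369 CPM in Scx-/-, and the acinar genes took 0.00598% to 11.2% of spleen counts, most in the libraries with most Klk1. Rectum held more Klk1 on average than spleen, with acinar genes at 0.0241% to 0.776% of its counts. Over the 16 tissue means the r of Klk1 with the acinar list was 0.707, and 0.841 without kidney. The part of acinar RNA in the Klk1 level was not tested. Klk1 in adipose had a log2 fold change of 1.17 (SE 0.32, edgeR adjusted p = 0.365), with all 3 Scx-/- libraries above the 3 wild-type libraries, and an adjusted p of 0.00411 without wild-type replicate 1. Klk1 also has close relatives: 13 Klk1b transcripts matched Klk1 at 82% to 94.2% of aligned bases. Together they had 95 counts in kidney against 9630 for Klk1, and 255 in adipose against 10221, and how reads common to several of them were split is not given in the sources used here.

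The genes most like each of the 10 over the 16 tissue means, by Pearson r of log2(CPM + 1) among 15926 genes, are given as a description. Kap was closest to Acsm2 (0.976), Umod (0.968) and Slc12a1 (0.958), Slc34a1 to Acsm2 (0.96), Slc12a1 (0.948) and Umod (0.946), and Umod to Mep1a, a brush border metalloprotease (0.973), Slc12a1 (0.97) and Kap (0.968). Slc12a1 was closest to Acsm2 (0.974), Umod (0.97) and Miox (0.965), Lrp2 to Cdh16, kidney-specific cadherin (0.922), 1700011H14Rik (0.892) and Slc5a12 (0.891), and Cubn to Slc13a1, the sodium sulphate cotransporter (0.971), Cndp1 (0.966) and Dnase1 (0.942). Slc12a3 was close to Slc17a1 (0.981) and Hsd3b2 (0.975), and Aqp2 was closest to Atp6v1g3, a proton pump subunit of intercalated cells (0.956), Serpina1f (0.949) and Slco1a6 (0.94). Klk1 was closest to the pancreatic genes Spink1 (0.916) and Cela1 (0.82) and to Mcoln2 (0.848), and Aqp1, closest to Mdfic (0.863), Srgn (0.857) and C1qtnf1 (0.838). Genes of the proximal tubule and of the thick ascending limb were among each other's nearest genes by tissue mean. They were picked as kidney genes, so a shared high mean in kidney was set by that choice. Outside kidney their means rest on few counts, whose source was not tested.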

How the data were processed

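The authors pooled barcoded samples for sequencing, mapped reads to mm10 with Bowtie2 and counted them per gene with HTSeq, per the labels and the study's methods; the strand setting, annotation and versions were not found in the labels or methods. Reads were enriched for 3' ends of polyadenylated RNA. The deposited values are raw counts for 41575 gene symbols in 96 libraries; 19082 symbols are at 0 throughout. CPM was set on library totals (11244 to 1658192), and intervals and floors cover counting error only. Gene lengths came from GENCODE on GRCm38, promoters from RefSeq. Genotypes were compared tissue by tissue with edgeR 4.0.16 (TMM, robust quasi-likelihood test), after dropping genes without a count in any of the tissue's 6 libraries. A gene was called at a Benjamini-Hochberg adjusted p under 0.05. Alternatives were RLE scaling, library totals, filterByExpr, DESeq2 1.42.0, thinning, a replicate block, leaving out each library and the study's thresholds (unadjusted p under 0.05, fold over 2). Kidney replicates differed beyond counting error (chi-square per degree of freedom 8.11 to 11.6). Named were the 10 genes, of each nephron list the called genes and the 3 with the highest mean in wild-type kidney, 3 most similar genes each, and Lrpap1; 1 gene that this rule names is not reported here. The 10 genes and all lists were chosen with earlier results of these data known.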

Additional observations from a re-analysis of the deposited data

Results flagged for a closer look

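Klk1 separated by genotype in opposite directions in adipose and bone, though neither difference passed its own test. In adipose the Scx-/- libraries (5794, 7804 and 6998 CPM) were above the wild-type ones (5459, 3892 and 4085 CPM), with a log2 fold change of 1.17 (SE 0.32, edgeR adjusted p = 0.365). In bone the Scx-/- libraries (12.5, 8.05 and 0 CPM) were below them (69.3, 66.9 and 170 CPM), with a log2 fold change of -3.26 (SE 2.3, edgeR adjusted p = 0.636). The difference between these effects, fitted by edgeR on the 12 libraries of both tissues, was -4.38 on the log2 scale (bone minus adipose). This pair was 1 of 11 picked, after the data were seen, because the genotypes of Klk1 or Aqp1 did not overlap in opposite directions, so the fitted difference is a description and its p is not given. The bone values rest on 20 counts in wild-type and 4 in Scx-/-, which is 0.249% of the kidney counts of Klk1 (95% exact interval 0.16 to 0.371), near the 0.242% of Kap in bone. The adipose libraries hold mostly pancreatic acinar transcripts, as given above, and the part of either in the difference was not tested.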

How the results depend on the processing

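Kap in kidney was lower in Scx-/- and was called in 12 of 13 alternatives (1 of the 13, Xist status as a covariate, was chosen after seeing the data), with log2 fold changes of -1.07 to -1.45, the exception being filterByExpr. With filterByExpr, 0 genes, 0 of the 10 and 0 nephron list genes were called in kidney, and 0 of the 10 elsewhere, with 7724 genes tested in kidney in place of 15377. DESeq2 called 12 genes in kidney and 0 of the nephron lists. The study's thresholds passed 664 genes in kidney, 5 nephron list genes, and 7 tests of the 10 genes elsewhere; library totals passed 0 elsewhere. Leaving out 1 library gave 14 (no wild-type replicate 2) to 43 genes in kidney, 0 to 5 nephron list genes (0 when wild-type replicate 2 was dropped, 5 when Scx-/- replicate 2 was) and 0 to 2 calls elsewhere; those elsewhere included Klk1 in adipose, spleen and stomach. Calls higher in Scx-/- kidney were 12 of 30 with TMM, 16 of 29 with RLE, 15 of 29 with library totals and 9 of 12 with DESeq2. TMM-scaled CPM put the 10 genes at 2.32% of Scx-/- kidney counts, against 2.46%, and at 3.93% of wild-type kidney counts, against 3.55%. Replicate numbers did not pair the libraries (correlation of deviations -0.0165 to 0.0104 in kidney); with the replicate number as a block, 23 genes were called in kidney, Kap among them, and 0 of the 10 genes elsewhere. Of 130 gene by alternative results for the 10 genes in kidney, 11 had a changed sign of the log2 fold change. These were of Aqp1, Aqp2, Slc12a3 and Umod, none called. Of the 96 libraries, 8 had under 50000 counts, and the genotype tests were not repeated without them as a set.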
